A study of Rattus norvegicus with 12 samples.

Results

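Transcripts of the structural genes of the cardiac sarcomere and its Z-disc were followed in the ventricles of rats after ischaemia and reperfusion. The set is a list of gene names, drawn up with earlier results of these data known, and holds 34 genes: 3 of the thick filament, titin, 7 of the thin filament, 12 of the Z-disc, 2 of the M-band, 5 of the Z-disc periphery and cell border, 2 small heat shock proteins of the sarcomere and 2 muscle ring-finger ubiquitin ligases. Of these, 30 had a probe set that carries a single gene symbol, out of 10411 such genes on the array, and the probe set with the highest mean signal stands for each. Lmod2, Myot and Nebl had no such probe set. Actc1, cardiac actin, was read only by 3 probe sets shared with Acta2 and was left out.

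Each rat gave 1 array, and each of 4 groups held 3 rats. In IR rats the left anterior descending coronary artery (LAD), the main vessel of the anterior left ventricle, was occluded for 30 min and the heart was then reperfused for 2 d (replicates 69, 73 and 76) or 7 d (replicates 44, 47 and 48). In sham rats of 2 d (replicates 71, 72 and 74) and 7 d (replicates 80, 81 and 82) the artery was not occluded. The sources used here give no strain, sex or age, and no genetic change or drug is named for any group. The labels name the whole ventricle, not the infarct, its border or the remote wall, so that in these bulk samples fewer cells of a type and less RNA per cell cannot be told apart.

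The sarcomere is the contractile unit of the heart muscle cell. Myosin-based thick filaments slide along actin-based thin filaments under the control of troponin and tropomyosin, thin filaments are anchored and crosslinked at the Z-disc, thick filaments are held together at the M-band, and titin spans from the Z-disc to the M-band. Z-disc proteins also carry signals from stretch to the nucleus, ring-finger ligases mark sarcomere proteins for degradation, and loss of sarcomere proteins is a known feature of heart muscle injured by ischaemia.

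Lower signals in IR than in sham ventricles ran through most of these genes, and at 7 d they passed the test for 14 of the 30, with 0 higher. The test was limma's moderated test across all probe sets, with p-values adjusted by the Benjamini-Hochberg method and called under 0.05; signals are the deposited linear MAS5 values, and log2 changes are those of signal plus a pseudocount of 195, given with their standard error (SE) and 3 against 3 rats. The background for the 14 is that 5.84% of all 10527 tested probe sets were called lower at 7 d and 6.22% higher. The median log2 change of the 30 genes at 7 d was -0.43, against 0.007 over all probe sets tested, and 28 of the 30 changes were negative, as were 49.2% of all changes. In 21 of the 30, the 3 IR signals all lay below the 3 sham signals, which was so for 15.8% of all probe sets.

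At 2 d 1 of the 30 genes was called, Tnni3, where 0.589% of all tested probe sets were called lower. The median change was -0.29, against 0.003 over all probe sets, and 28 of 30 changes were again negative, with 49.6% over all probe sets. The IR signals lay below all sham signals in 16 genes, against 12.5% of all probe sets. At an unadjusted p under 0.05, 17 of 30 genes were lower at 2 d and 26 at 7 d, where 9.54% and 13.1% of all probe sets were. Tnni3 was the one gene called at both days. The 2 d count was 0 without any 1 of 9 rats, 5 when replicate 73 was left out and 4 when replicate 82 was. Of all probe sets, 1.48% were called lower without replicate 73 and 1.5% without replicate 82. In the 9 analyses with a count of 0, this share was 0.0095% to 0.503%. Under quantile normalization, the 2 d changes of Myl2, Tnnt2, Csrp3, Des and Cryab turned positive, at 0.04 to 0.13, and none passed.

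Between the IR effects at 7 d and 2 d, 0 of the 30 genes differed by limma's test of the difference, in which 1 of all 10527 probe sets (0.0095%) was called. Mypn and Xirp1 had an unadjusted p under 0.05 there, against 7.14% of all probe sets. A gene called at 7 d and not at 2 d is therefore not shown to have changed more at 7 d.

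**Figure D1:**
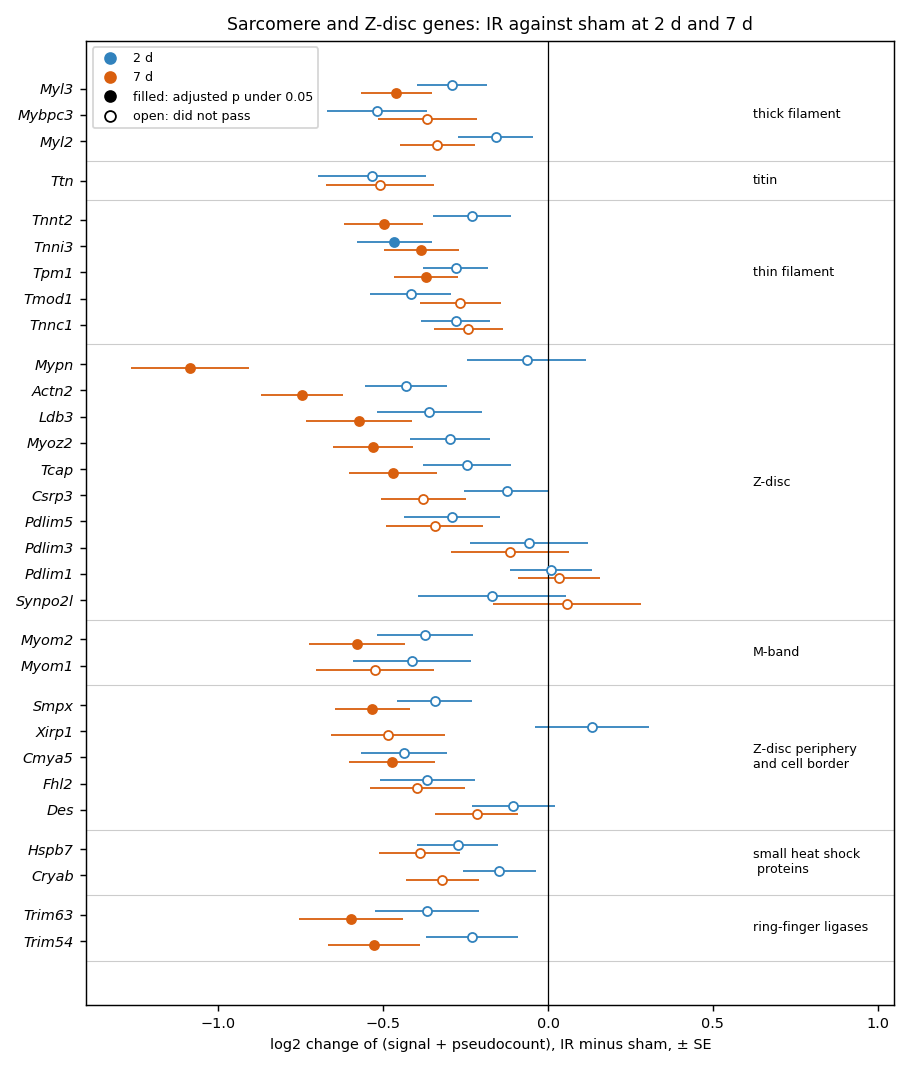
Log2 change of signal plus pseudocount between IR and sham rats (x axis, points with SE) for each of the 30 genes (y axis, by class) at 2 d in blue and 7 d in orange, with filled points for an adjusted p under 0.05. Most points lie left of 0 at both days, the 14 filled orange points run from -0.37 for Tpm1 to -1.09 for Mypn, and the single filled blue point is Tnni3 at -0.47.

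The count at 7 d rested on single arrays. It was 2 (Actn2 and Mypn) when sham replicate 82 was left out, 3 when IR replicate 44 was left out and 6 when IR replicate 47 was left out, while 0.513%, 1.86% and 2.27% of all probe sets were then called lower. Replicate 82 held the highest of the 3 sham signals in 21 of the 30 genes, and replicate 44 the lowest of the 3 IR signals in 21. Under quantile normalization between arrays, the median change of the 30 genes shrank to -0.23 at 7 d and -0.11 at 2 d, with 10 and 0 called. Of all probe sets, 5.83% at 7 d and 0.437% at 2 d were called lower under that normalization. Of the 14 genes, Myl3, Actn2, Mypn, Myoz2 and Smpx passed under all 12 other settings tried, apart from leaving out a single rat. The other 9 lost the call in at least 1 of them, with an adjusted p of up to 0.0523 for Tnnt2, 0.057 for Trim63, 0.0724 for Myom2, 0.0967 for Tcap, 0.0973 for Ldb3, 0.107 for Cmya5, 0.11 for Trim54, 0.297 for Tnni3 and 0.786 for Tpm1. With the sham rats of both days pooled as control, 26 of the 30 were called at 7 d, and 10.8% of all probe sets were.

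Arrays within a group were uneven. On the first principal component over all tested probe sets, which held 39.0% of the variance, replicate 69 scored 18.3 and its 2 d IR group mates -4.11 and 0.18, while replicate 82 scored -23.62 and the remaining 7 d sham rats -1.06 and -1.14. Averaged over the 30 genes, replicate 69 lay 0.455 log2 units below the mean of its sham group, replicate 76 lay 0.237 below and replicate 73 lay 0.122 below. At 7 d the IR rats lay 0.559 (replicate 44), 0.403 (replicate 47) and 0.301 (replicate 48) below the mean of their sham group, so that the IR rats did not reach into the sham range of -0.0905 to 0.138 around that mean. What sets these arrays apart was not tested. The 7 d IR rats also carry lower numbers than the other 9 rats, and whether this marks a batch cannot be told apart from the group.

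Z-disc genes held the 2 largest decreases, those of Mypn and Actn2. Of 10 Z-disc genes measured, 5 fell at 7 d (Mypn, Actn2, Ldb3, Myoz2 and Tcap), 0 rose and 5 did not pass, and 0 were called at 2 d. The Z-disc median was -0.21 at 2 d and -0.42 at 7 d. Without 2 d IR replicate 69 or without 2 d sham replicate 72, its 2 d value was -0.12. Medians were lower at both days for the M-band (-0.39 at 2 d and -0.55 at 7 d) and titin (-0.53 and -0.51). So were those of the ring-finger ligases (-0.30 and -0.56) and the Z-disc periphery (-0.34 and -0.47). The classes differ in size, and differences between them were not tested. Ordered by mean signal, the 15 dimmer genes of the whole set had a 7 d median of -0.51 and the 15 brighter ones -0.38. The part of signal brightness in the differences between classes was not tested.

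Mypn, myopalladin, tethers alpha-actinin to other Z-disc and I-band proteins. Its probe set (1374088_at) gave 3873, 4272 and 3543 in 2 d sham rats, 2700, 4654 and 4033 in 2 d IR rats, 2800, 3790 and 3908 in 7 d sham rats and 1653, 1610 and 1342 in 7 d IR rats. All 7 d IR values lie below every value of the other groups, while the 2 d IR values span the 2 d sham range. Mypn fell at 7 d by 1.09 on the log2 scale (SE 0.18, adjusted p = 0.00548), 2.12-fold, the one gene of the 30 past 2-fold (1.88% of all probe sets passed it, either way), and the call held without any single one of the 12 rats (adjusted p up to 0.0282). Its 2 d change was -0.07 (SE 0.18, adjusted p = 0.882). Between the IR groups it was lower at 7 d than at 2 d by 1.18 (SE 0.18, adjusted p = 0.00228), also in each analysis with 1 rat left out. The difference of its IR effects at the 2 days was -1.02 (SE 0.25) with an adjusted p of 0.33.

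Actn2, the sarcomeric alpha-actinin that crosslinks actin at the Z-disc, showed signals of 31186, 32388 and 32625 in 2 d sham rats, 20414, 25406 and 25754 in 2 d IR rats, 27360, 25541 and 34429 in 7 d sham rats and 15495, 18222 and 17781 in 7 d IR rats (probe set 1372595_at). Both IR groups lie wholly below their sham groups, and the 7 d IR rats are the lowest of the 12. Actn2 fell at 7 d by 0.75 (SE 0.12, adjusted p = 0.00558), a call kept without any single rat (adjusted p up to 0.0274). The 2 d change of -0.43 (SE 0.12) had an adjusted p of 0.0718.

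Ldb3 (also ZASP or Cypher), a PDZ-LIM protein that binds alpha-actinin, had 24033, 22980 and 22705 in 2 d sham rats, 15662, 20483 and 18353 in 2 d IR rats, 20762, 15570 and 20292 in 7 d sham rats and 9514, 14901 and 13820 in 7 d IR rats (probe set 1372737_at). IR rats were below the sham rats of their day at both days, and the 7 d sham rats were below the 2 d sham rats too. Ldb3 fell at 7 d by 0.57 (SE 0.16, adjusted p = 0.0329). Ldb3 lost its call without 7 d sham replicate 80 or 82 or 7 d IR replicate 44 (adjusted p up to 0.136), each rat left out alone, here and for the genes that follow. The 3 other Ldb3 probe sets fell as well at 7 d, by 0.75 (adjusted p = 0.00998), 0.58 (adjusted p = 0.0464) and 0.49 (adjusted p = 0.0412). Between the sham groups, however, these 3 overlapped, with changes from 2 d to 7 d of 0.12, -0.11 and 0.14 in the same order. These 4 probe sets read the same rats and are no independent measurements, and the isoform each reads is not given.

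Myoz2 (calsarcin-1) links alpha-actinin to the phosphatase calcineurin, and its signals were 34406, 37117 and 31703 in 2 d sham rats, 23644, 31103 and 29566 in 2 d IR rats, 30609, 32809 and 37244 in 7 d sham rats and 21817, 21768 and 25888 in 7 d IR rats. In the 7 d IR rats they stayed below all 9 other rats but 2 d IR replicate 69, whose value falls among them. Myoz2 fell at 7 d by 0.53 (SE 0.12, adjusted p = 0.0153). Myoz2 lost its call without 7 d sham replicate 82 or 7 d IR replicate 44 or 47 (adjusted p up to 0.0783).

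Tcap, telethonin, caps the end of titin in the Z-disc. It gave 40246, 44872 and 41479 in 2 d sham rats, 30054, 37360 and 39924 in 2 d IR rats, 32718, 36694 and 47357 in 7 d sham rats and 29679, 27028 and 26478 in 7 d IR rats, with a wide 7 d sham group led by replicate 82 and no overlap with IR at either day. Tcap fell at 7 d by 0.47 (SE 0.13, adjusted p = 0.0352). Tcap lost its call without 7 d sham replicate 81 or 82 or 7 d IR replicate 44, 47 or 48 (adjusted p up to 0.164).

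Csrp3, the muscle LIM protein, had signals of 43198, 47236 and 37484 in 2 d sham rats, 35411, 44076 and 37683 in 2 d IR rats, 44378, 39927 and 45522 in 7 d sham rats and 27905, 33983 and 38627 in 7 d IR rats. At 7 d the IR rats lay below the sham rats, with replicate 48 close to the lowest sham value, while the groups overlapped at 2 d. The 7 d change of -0.38 (SE 0.13) had an adjusted p of 0.0688.

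The other 4 Z-disc genes overlapped between IR and sham at both days. They were Pdlim1 (0.03, SE 0.12, at 7 d), Pdlim3 (-0.12, SE 0.18), Pdlim5 (-0.34, SE 0.15), all PDZ-LIM proteins of the Z-disc, and Synpo2l (0.06, SE 0.23), an actin-binding Z-disc protein, with adjusted p from 0.139 to 0.894. Synpo2l had the widest spread of the 30 genes in 7 d IR rats, at 4969, 6569 and 11749. A second, dimmer Pdlim5 probe set gave a positive 7 d change of 0.44 that also did not pass (adjusted p = 0.239).

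**Figure D2:**
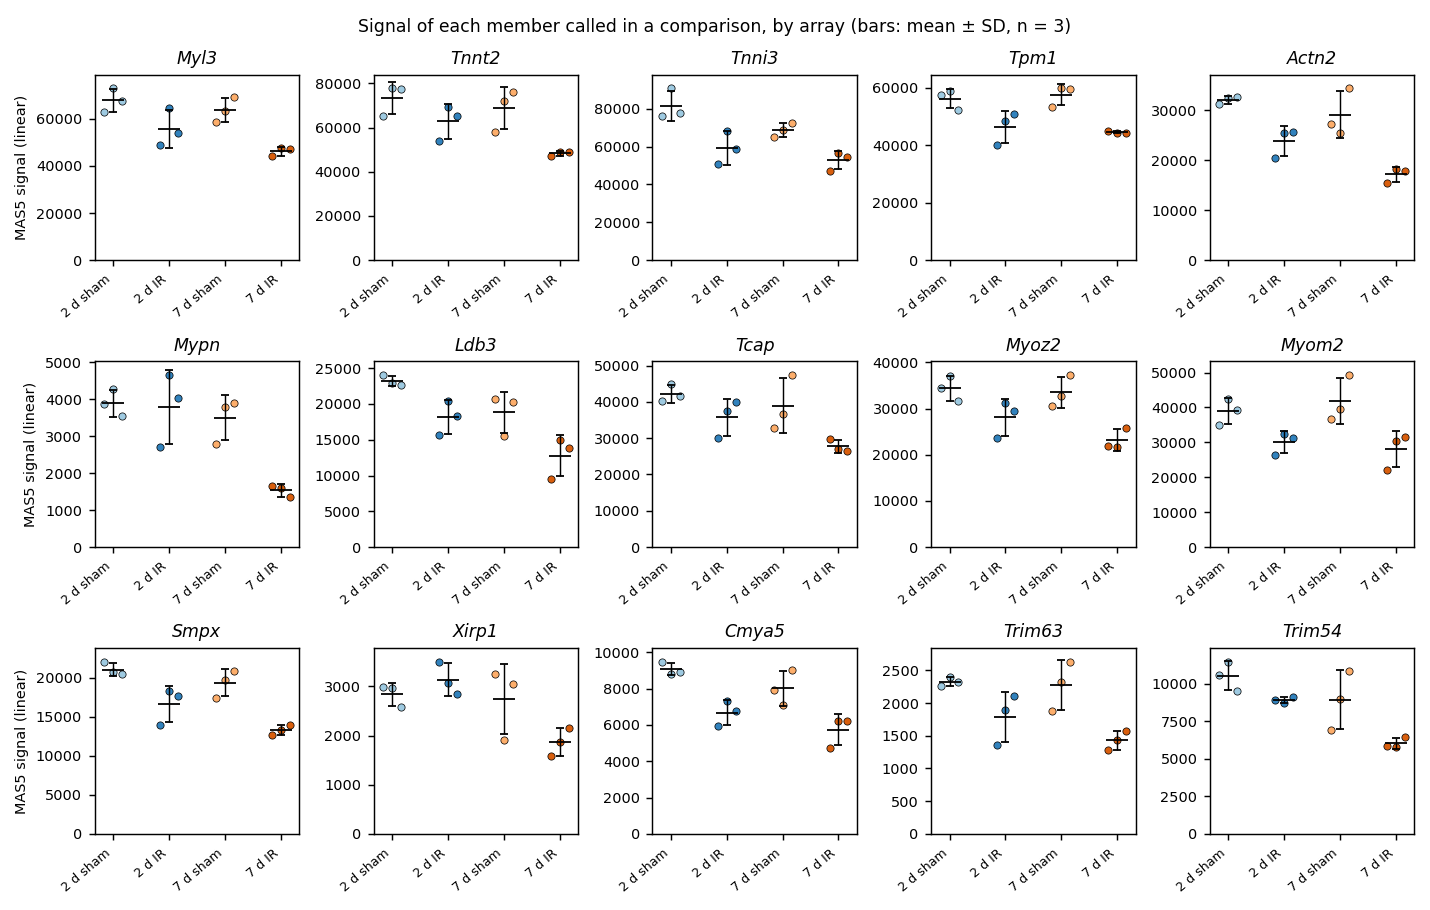
Linear MAS5 signal (y axis, from 0) of each of the 15 genes called in an IR comparison or between the IR groups, in each of the 12 rats (points) by group (x axis), with the mean and SD of 3 rats. The 7 d IR rats have the lowest group mean in each panel, and for Myl3, Tnnt2, Mypn and Xirp1 the 2 d IR rats overlap with the 2 d sham rats.

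Promoter sequences are shown for the 4 genes with the largest called decreases at 7 d that have a promoter in the RefSeq table (build GRCr8), to let a reader see what lies upstream of the genes that moved most; Myom2, which fell more than Ldb3, has no entry. Each is 300 bases, from 250 before to 50 after the transcript start. Capitals mark matches, on either strand, to a CArG box (the site of serum response factor), a MEF2 site, an MCAT element (CATTCC, the site of TEAD factors) or a TATA box (TATAAA).
Mypn, chr20:25435304-25435603, plus strand: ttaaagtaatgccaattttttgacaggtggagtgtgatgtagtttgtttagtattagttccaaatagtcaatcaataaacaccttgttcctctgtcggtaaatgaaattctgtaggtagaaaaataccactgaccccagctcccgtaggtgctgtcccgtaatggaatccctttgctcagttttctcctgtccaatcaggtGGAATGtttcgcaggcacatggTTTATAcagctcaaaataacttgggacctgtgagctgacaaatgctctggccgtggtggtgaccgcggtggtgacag
Actn2, chr17:62834805-62835104, plus strand: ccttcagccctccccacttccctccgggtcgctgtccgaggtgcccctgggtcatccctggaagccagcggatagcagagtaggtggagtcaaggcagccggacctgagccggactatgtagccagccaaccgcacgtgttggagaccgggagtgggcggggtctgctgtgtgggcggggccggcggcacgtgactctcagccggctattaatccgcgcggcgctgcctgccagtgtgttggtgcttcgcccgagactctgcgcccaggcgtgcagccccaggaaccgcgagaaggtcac
Trim63, chr5:151816986-151817285, plus strand: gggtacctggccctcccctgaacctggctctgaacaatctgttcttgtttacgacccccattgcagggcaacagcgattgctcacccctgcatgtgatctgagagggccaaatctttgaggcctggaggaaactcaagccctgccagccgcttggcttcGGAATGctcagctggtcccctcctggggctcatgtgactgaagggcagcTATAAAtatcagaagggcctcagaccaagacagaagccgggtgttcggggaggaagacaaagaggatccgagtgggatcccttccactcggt
Ldb3, chr16:9924630-9924929, minus strand: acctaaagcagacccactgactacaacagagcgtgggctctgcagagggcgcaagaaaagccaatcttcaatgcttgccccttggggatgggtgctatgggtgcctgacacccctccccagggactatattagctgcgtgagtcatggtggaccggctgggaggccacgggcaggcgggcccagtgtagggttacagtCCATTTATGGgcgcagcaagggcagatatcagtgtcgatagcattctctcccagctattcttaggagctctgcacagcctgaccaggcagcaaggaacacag
The Mypn window holds an MCAT element that starts 49 bases and a TATA box that starts 27 bases before the transcript start, Trim63 an MCAT element at 91 and a TATA box at 42 bases before it, and Ldb3 a CArG box at 52 bases before it. The Actn2 window matches none of the 4. Of the 30 genes, 23 have a promoter in the table. A MEF2 site stood in 8 of the 23 (34.8%, against 3.66% of the 27457 genes in the table), a CArG box in 3 (13.0% against 1.77%), an MCAT element in 8 (34.8% against 15.0%) and a TATA box in 4 (17.4% against 15.3%). An E-box (CANNTG), which can overlap the others and is not capitalised, stood in 20 (87.0% against 73.2%). The median GC content was 57.0% in the promoters of the 23 genes and 51.7% over the table. These are matches of letters in 1 window per transcript start, not measured binding.

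In the thin filament 3 of 5 genes fell at 7 d (Tnnt2, Tnni3 and Tpm1), Tnni3 also at 2 d, and the class median was -0.28 at 2 d (-0.18 without 2 d IR replicate 69) and -0.37 at 7 d. Tnnt2 is troponin T, the subunit that binds tropomyosin. Its signals were 65229, 77798 and 77584 in 2 d sham rats, 54039, 69106 and 65172 in 2 d IR rats, 57915, 72215 and 76174 in 7 d sham rats and 46970, 49163 and 48744 in 7 d IR rats (probe set 1367592_at). Close together, the 7 d IR rats lie below the other 9, while the 2 d groups overlap. For Tnnt2 the 7 d decrease was 0.50 (SE 0.12, adjusted p = 0.0177). Tnnt2 lost its call without 7 d sham replicate 81 or 82 or 7 d IR replicate 44 or 47 (adjusted p up to 0.0856).

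Tnni3 is troponin I, the inhibitory subunit and the protein measured in blood as a sign of heart muscle injury. Its probe set (1386931_at) read 76259, 90743 and 77548 in 2 d sham rats, 50666, 68178 and 58749 in 2 d IR rats, 64986, 68523 and 72521 in 7 d sham rats and 47331, 56322 and 54306 in 7 d IR rats, the highest single signal on any array being the 2 d sham value of replicate 72. IR lies below sham at both days, and 7 d sham below 2 d sham. Tnni3 fell by 0.47 at 2 d (SE 0.11, adjusted p = 0.045) and by 0.38 at 7 d (SE 0.11, adjusted p = 0.041). The 2 d call held in 3 of the 12 analyses with 1 rat left out (without 2 d IR replicate 73, 7 d sham replicate 82 or 7 d IR replicate 44) and was lost in the others, with an adjusted p of up to 0.227. At 7 d, Tnni3 lost its call without 2 d sham replicate 74, 2 d IR replicate 76, 7 d sham replicate 81 or 82 or 7 d IR replicate 44, 47 or 48 (adjusted p up to 0.156).

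Tpm1 is alpha-tropomyosin, which lies along actin and is spliced into several isoforms. Its brightest probe set (1368724_a_at) gave 57602, 58883 and 52400 in 2 d sham rats, 40183, 48314 and 50981 in 2 d IR rats, 53461, 59878 and 59574 in 7 d sham rats and 44874, 44253 and 44324 in 7 d IR rats, with the 7 d IR rats within a narrow range below all sham rats. For this probe set Tpm1 fell at 7 d by 0.37 (SE 0.10, adjusted p = 0.0266). Tpm1 lost its call without 7 d sham replicate 81 or 82 or 7 d IR replicate 44, 47 or 48 (adjusted p up to 0.102). Of 4 other tested Tpm1 probe sets, 1371241_x_at fell by 0.40 (SE 0.11, adjusted p = 0.0297) and 1370288_a_at had a change of -0.35 that did not pass (adjusted p = 0.0797). The dimmest, 1371240_at, had a positive change of 0.27 that did not pass (adjusted p = 0.594). With the mean of all tested probe sets standing for the gene, the 7 d change of Tpm1 was 0.05 and the call was lost.

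The probe set 1370287_a_at of Tpm1 went the other way. It read 1137, 1571 and 1534 in 2 d sham rats, 2762, 1657 and 1927 in 2 d IR rats, 2191, 1690 and 1276 in 7 d sham rats and 5115, 3332 and 3385 in 7 d IR rats. The 7 d IR rats are the highest of all 12, and 2 d IR lies above 2 d sham. This probe set rose at 7 d by 1.11 (SE 0.22, adjusted p = 0.00946), 2.16-fold. The call was lost without 7 d sham replicate 82 and held in the other 11 analyses with 1 rat left out. At 2 d its change was 0.50 (adjusted p = 0.195). It was the one probe set among the 11 other tested ones of these genes to be called higher at 7 d. The sources used here do not say which Tpm1 exon or isoform each probe set reads, and levels are not compared between probe sets.

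**Figure D3:**
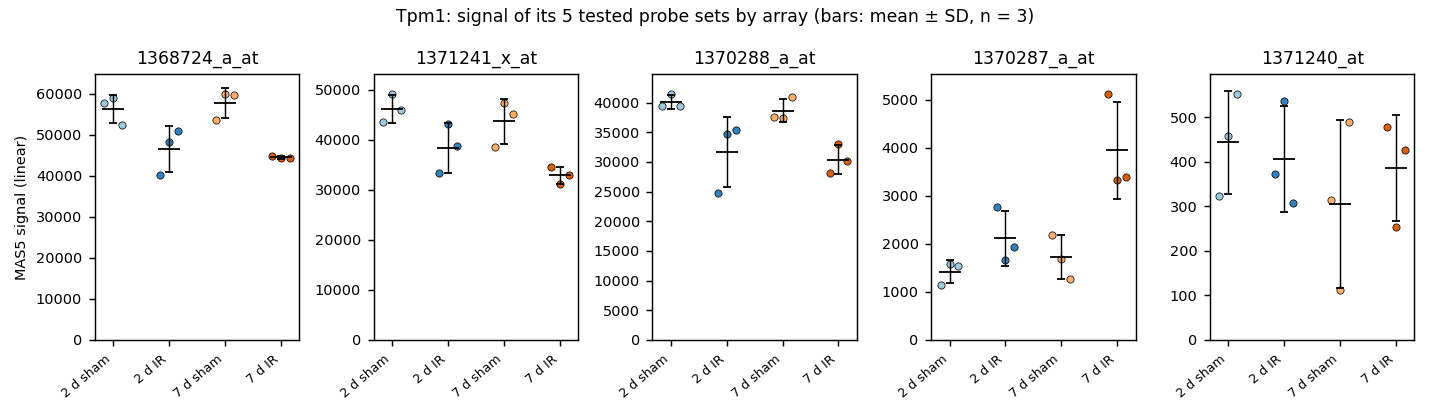
Linear MAS5 signal (y axes, each from 0 with its own scale) of the 5 tested probe sets that carry the symbol Tpm1, in each rat (points) by group (x axis), with the mean and SD of 3 rats. The 3 brightest are lower in 7 d IR than in 7 d sham rats, 1370287_a_at is higher (3332 to 5115 against 1276 to 2191), and the dimmest overlaps between groups.

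Tnnc1 is troponin C, the calcium sensor, and gave 57253, 61092 and 62381 in 2 d sham rats, 42798, 57200 and 49715 in 2 d IR rats, 56138, 57447 and 61545 in 7 d sham rats and 45378, 52810 and 49986 in 7 d IR rats. IR lies below sham at both days, by a margin that is narrow at 2 d, where the highest IR and the lowest sham signal nearly meet. The changes were -0.28 at 2 d (adjusted p = 0.142) and -0.24 at 7 d (adjusted p = 0.148), the latter 0.01 under quantile normalization. Tmod1, tropomodulin, caps the pointed ends of thin filaments and had 12342, 12020 and 12510 in 2 d sham rats, 8014, 10261 and 9339 in 2 d IR rats, 9961, 9824 and 12516 in 7 d sham rats and 8285, 8612 and 9777 in 7 d IR rats. Its IR rats were below the sham rats of the same day at both days, but the 7 d sham rats other than replicate 82 reached down to the IR range of 2 d. The changes of -0.42 at 2 d (adjusted p = 0.0776) and -0.27 at 7 d (adjusted p = 0.176) did not pass.

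Thick filament genes on the set were the ventricular light chains Myl2 and Myl3, which stabilise the myosin neck, and Mybpc3, myosin-binding protein C, which regulates cross-bridges; 1 of the 3 fell at 7 d. Myl3 (probe set 1367572_at) gave 62995, 72908 and 67594 in 2 d sham rats, 48894, 64459 and 53731 in 2 d IR rats, 58674, 63305 and 69183 in 7 d sham rats and 43972, 47572 and 47076 in 7 d IR rats. Again the 7 d IR rats lie below the other 9, and the 2 d groups overlap through replicate 73. For Myl3 the 7 d decrease was 0.46 (SE 0.11, adjusted p = 0.0161). Myl3 lost its call without 7 d sham replicate 82 or 7 d IR replicate 44 (adjusted p up to 0.0803).

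Myl2 read 59130, 66119 and 72537 in 2 d sham rats, 50372, 68792 and 58746 in 2 d IR rats, 61597, 67979 and 65511 in 7 d sham rats and 48164, 55124 and 51247 in 7 d IR rats, lower in 7 d IR than in 7 d sham rats without overlap, and its change of -0.34 (SE 0.11) missed the threshold (adjusted p = 0.0678). A second, much dimmer Myl2 probe set (1388293_at, mean signal 833) overlapped at 7 d, with a positive change of 0.35 that did not pass (adjusted p = 0.404). Mybpc3 had 31282, 34484 and 31089 in 2 d sham rats, 18725, 24895 and 24286 in 2 d IR rats, 31782, 24300 and 36756 in 7 d sham rats and 20386, 25034 and 25873 in 7 d IR rats. Its IR rats were below sham at 2 d, whereas 7 d sham replicate 81 fell within the 7 d IR range. Its changes were -0.52 at 2 d (SE 0.15, adjusted p = 0.0738) and -0.37 at 7 d (adjusted p = 0.129). The class median was -0.29 at 2 d and -0.37 at 7 d.

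Ttn, titin, the spring that sets passive tension, gave 15665, 20142 and 15381 in 2 d sham rats, 9724, 13974 and 11578 in 2 d IR rats, 15262, 12152 and 15147 in 7 d sham rats and 9111, 8584 and 12230 in 7 d IR rats through 1 probe set (1375518_at), which cannot stand for the whole of its very long transcript. Its IR rats lay below sham at 2 d and overlapped with 7 d sham replicate 81, and the 7 d sham rats lay below the 2 d sham rats. The changes were -0.53 at 2 d (SE 0.16, adjusted p = 0.0859) and -0.51 at 7 d (SE 0.16, adjusted p = 0.0581).

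At the M-band, where myomesins crosslink neighbouring thick filaments, 1 of 2 genes fell. Myom2 (probe set 1373130_at) gave 35010, 42408 and 39302 in 2 d sham rats, 26372, 32414 and 31268 in 2 d IR rats, 36602, 39488 and 49250 in 7 d sham rats and 22128, 30350 and 31526 in 7 d IR rats. IR lies below sham at both days, with 7 d sham replicate 82 highest and 7 d IR replicate 44 lowest of the 12. Myom2 fell at 7 d by 0.58 (SE 0.15, adjusted p = 0.0219). Myom2 lost its call without 7 d sham replicate 82 or 7 d IR replicate 44 (adjusted p up to 0.109). Myom1 had 7213, 8854 and 6207 in 2 d sham rats, 4007, 5956 and 6838 in 2 d IR rats, 6540, 6280 and 7721 in 7 d sham rats and 4156, 4802 and 5153 in 7 d IR rats, with 7 d IR below 7 d sham and a change of -0.52 (SE 0.18) that missed the threshold (adjusted p = 0.0707).

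Genes of the Z-disc periphery and the cell border gave 2 decreases among 5 at 7 d, Smpx and Cmya5. Smpx encodes a small muscle protein of the costamere, the attachment of the Z-disc to the cell membrane, and read 21987, 20657 and 20411 in 2 d sham rats, 13971, 18312 and 17581 in 2 d IR rats, 17432, 19706 and 20867 in 7 d sham rats and 12617, 13276 and 13945 in 7 d IR rats (probe set 1370165_at). The 7 d IR rats are the lowest of the 12, 2 d IR replicate 69 comes next, and the groups do not overlap at either day. Smpx fell at 7 d by 0.53 (SE 0.11, adjusted p = 0.0121). Smpx lost its call without 7 d sham replicate 82 (adjusted p up to 0.0601).

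Cmya5, myospryn, which binds desmin and alpha-actinin, had 9464, 8824 and 8941 in 2 d sham rats, 5946, 7291 and 6792 in 2 d IR rats, 7901, 7118 and 9024 in 7 d sham rats and 4754, 6239 and 6211 in 7 d IR rats (probe set 1388741_at), again without overlap at either day. For Cmya5 the 7 d decrease was 0.47 (SE 0.13, adjusted p = 0.0318). Cmya5 lost its call without 7 d sham replicate 80 or 82 or 7 d IR replicate 44 or 47 (adjusted p up to 0.144). Its 2 d change was of like size, at -0.44 (SE 0.13), with an adjusted p of 0.0799.

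Xirp1 (Xin), an actin-binding protein of the intercalated disc that is known to respond to muscle stress, showed another order of the groups. It gave 2982, 2961 and 2574 in 2 d sham rats, 3497, 3069 and 2837 in 2 d IR rats, 3257, 1919 and 3053 in 7 d sham rats and 1591, 1868 and 2154 in 7 d IR rats (probe set 1389119_at). At 2 d IR rats overlapped with sham and held the highest value of the 12, and at 7 d they lay below sham replicates 80 and 82 but overlapped with replicate 81. Neither IR change passed (0.13 at 2 d, adjusted p = 0.72, and -0.48 at 7 d, adjusted p = 0.0817), but 7 d IR was lower than 2 d IR by 0.69 (SE 0.17, adjusted p = 0.0394), without overlap. That call held in 4 of 12 analyses with 1 rat left out and was lost in the others, with an adjusted p of up to 0.14.

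Fhl2, a LIM protein that shuttles between sarcomere and nucleus, read 36615, 41089 and 34737 in 2 d sham rats, 26687, 30968 and 29436 in 2 d IR rats, 34043, 28555 and 41673 in 7 d sham rats and 21253, 28942 and 28731 in 7 d IR rats, below sham at 2 d and overlapping at 7 d, with changes of -0.37 (adjusted p = 0.161) and -0.40 (adjusted p = 0.0875). Des, desmin, the intermediate filament that ties Z-discs together, overlapped at both days, with changes of -0.11 (SE 0.13) and -0.22 (SE 0.13, adjusted p = 0.283).

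Neither small heat shock protein passed the test. Cryab, alpha-B-crystallin, which binds desmin and titin under stress, gave 66250, 71191 and 78600 in 2 d sham rats, 56230, 73542 and 65882 in 2 d IR rats, 61757, 68619 and 71502 in 7 d sham rats and 48833, 54588 and 58307 in 7 d IR rats. It was lower in 7 d IR than in 7 d sham rats without overlap and overlapped at 2 d, and its 7 d change was -0.32 (SE 0.11, adjusted p = 0.0743). Hspb7, a cardiac chaperone of the thin filament, had 55268, 62205 and 55341 in 2 d sham rats, 42048, 56446 and 45255 in 2 d IR rats, 48445, 44163 and 53838 in 7 d sham rats and 32617, 38414 and 40751 in 7 d IR rats, with the 7 d IR rats the lowest of the 12 and a change of -0.39 (SE 0.12, adjusted p = 0.0512).

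Both ring-finger ligases fell at 7 d. Trim63 (MuRF1), a ubiquitin ligase of titin's M-band end that is known for its part in muscle wasting, read 2254, 2402 and 2326 in 2 d sham rats, 1360, 1888 and 2113 in 2 d IR rats, 1880, 2321 and 2627 in 7 d sham rats and 1284, 1428 and 1578 in 7 d IR rats (probe set 1387804_at). IR lies below sham at both days, and the highest 7 d IR value is below every sham value. Trim63 fell at 7 d by 0.60 (SE 0.16, adjusted p = 0.0253). Trim63 lost its call without 7 d sham replicate 81 or 82 or 7 d IR replicate 44 or 47 (adjusted p up to 0.121). Its 2 d change was -0.37 (SE 0.16, adjusted p = 0.193).

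Trim54 (MuRF3), which binds microtubules and the Z-disc, had 10618, 11460 and 9561 in 2 d sham rats, 8910, 8751 and 9160 in 2 d IR rats, 6952, 8999 and 10877 in 7 d sham rats and 5862, 5796 and 6483 in 7 d IR rats (probe set 1372639_at). All 7 d IR values are below the others, and the 2 d IR rats lie close together just below 2 d sham. For Trim54 the 7 d decrease was 0.53 (SE 0.14, adjusted p = 0.0257). Trim54 lost its call without 7 d sham replicate 81 or 82 or 7 d IR replicate 44 or 47 (adjusted p up to 0.128). It was also lower in 7 d IR than in 2 d IR rats, by 0.55 (SE 0.14, adjusted p = 0.0419), a call that held in 2 of 12 analyses with 1 rat left out and was lost in the others, with an adjusted p of up to 0.137.

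**Figure D4:**
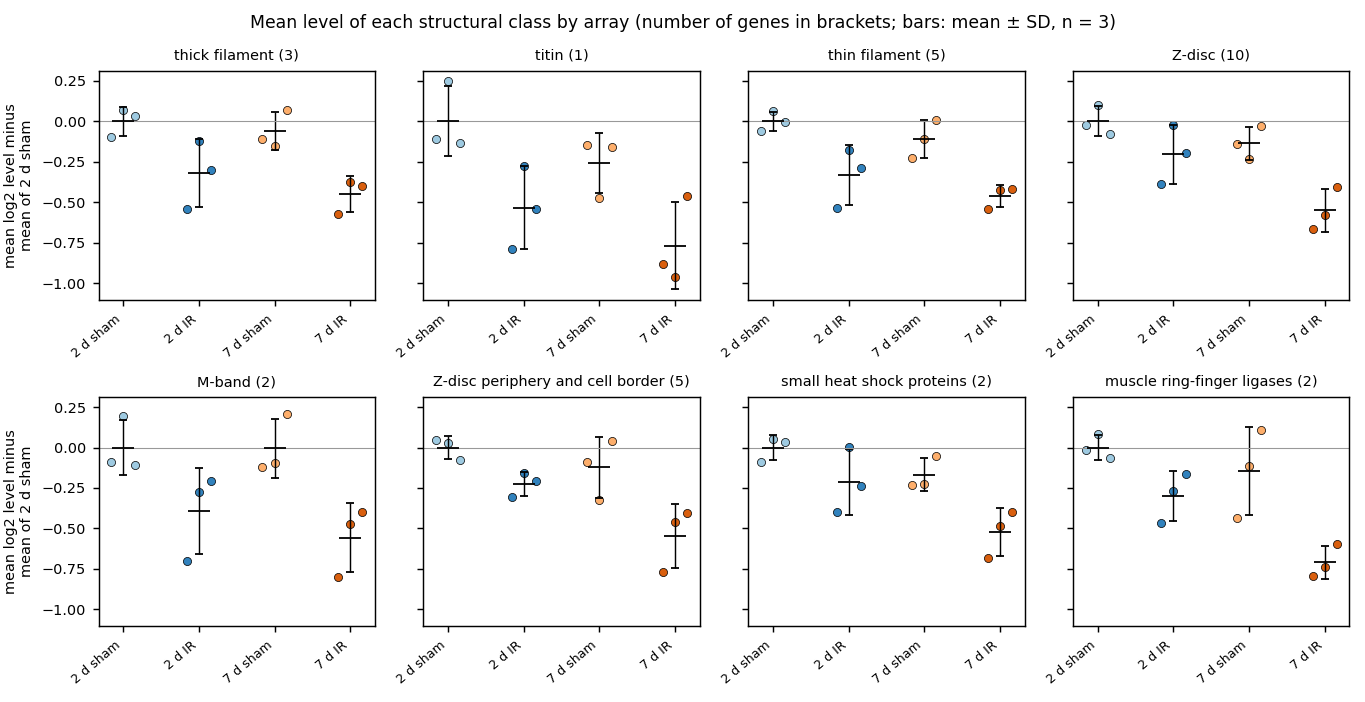
Mean log2 level of the genes of each class, minus the mean of the 2 d sham rats (y axis), in each rat (points) by group (x axis), with the mean and SD of 3 rats. In each class the 7 d IR rats lie lowest on average, and of the 2 d IR rats replicate 69 is the lowest in each class.

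The sham groups bear on how the days compare. No gene of the 30 was called between 7 d and 2 d sham (0 by limma, where 0.076% of all probe sets were called and 0.019% were lower). At an unadjusted p under 0.05, 1 of the 30 was lower, Tnni3, which is near the share of all probe sets, 3.99%. The median was -0.12, 26 changes were negative (49.6% of all probe sets), and 4 genes (Ttn, Tnni3, Ldb3 and Hspb7) were lower in all 7 d sham than in all 2 d sham rats, which was so for 7.07% of probe sets. For Ldb3 this held for its brightest probe set only, and its other probe sets overlapped between the sham groups. Between the IR groups, Mypn, Xirp1 and Trim54 were lower at 7 d, 3 of 30 against 0.997% of all probe sets, with a median of -0.23 and 28 negative (51.3% of all probe sets). In 10 genes all 7 d IR rats lay below all 2 d IR rats, against 9.91% of probe sets. The count of 3 was 1 without 7 d IR replicate 44 or 47, without 2 d IR replicate 73 or 76, or without any 1 of the 2 d sham rats, which leaves Mypn. Without replicates 44, 47, 73 and 76 in turn, 0.57%, 0.456%, 0.38% and 0.418% of all probe sets were called lower. Without a 2 d sham rat, 0.741% to 0.883% were.

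Other sarcomere genes, from a wider list, gave few calls. Of 25 tested, 3 rose at 2 d, all of them isoforms found also outside heart muscle (Actn1, the non-muscle alpha-actinin, by 1.15, Tpm3 by 0.93 and Tpm4 by 0.72), against 1.88% of all probe sets called higher, and 0 fell. All 3 calls were lost without any 1 of the 2 d sham rats, 2 d IR replicate 69 or 2 d IR replicate 76, and that of Tpm3 also without 7 d IR replicate 47 (adjusted p up to 0.217). At 7 d, 3 of the 25 fell and 2 rose, where 5.84% and 6.22% of all probe sets did, so that the count of higher genes is near the background. Myh6, the alpha myosin heavy chain of the adult rat ventricle, fell by 0.79 (SE 0.17, adjusted p = 0.0131), Fhod3, a formin of the thin filament, by 0.67 (SE 0.18, adjusted p = 0.0287) and Myh7, the beta heavy chain, by 0.39 (SE 0.11, adjusted p = 0.0374). Tpm4 rose by 0.78 (SE 0.16, adjusted p = 0.0105) and Csrp1, a LIM protein of smooth muscle, by 0.64 (adjusted p = 0.0376). None of these 5 genes passed once 7 d sham replicate 82 was left out, and Myh6 and Tpm4 alone passed with 7 d IR replicate 44 or 47 left out. Myh7 and Fhod3 also lost the call without 7 d sham replicate 80, Csrp1 without 81, and Myh7 without 2 d sham replicate 74 or 2 d IR replicate 76. Acta1, skeletal alpha-actin, which the stressed heart is known to re-express, had a change of 0.02 (SE 0.14, adjusted p = 0.925). The medians of this list, -0.06 at 2 d and -0.02 at 7 d, lay near those of all probe sets.

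Among genes that assemble and turn over the sarcomere, the called changes were decreases. Of 16 tested, 1 fell at 2 d, where 0.589% of all probe sets were called lower, and 5 at 7 d, where 5.84% were. At both days 0 were higher. The 2 d gene was Asb2, a ubiquitin ligase subunit, which fell by 0.73 (adjusted p = 0.0436). The largest 7 d decreases were those of Mylk3, the cardiac myosin light chain kinase (0.89, SE 0.17, adjusted p = 0.00816), Unc45b, the myosin chaperone (0.79, SE 0.17, adjusted p = 0.0131) and Nrap, which acts in myofibril assembly (0.59, SE 0.15, adjusted p = 0.0224). The Asb2 call held in 5 of 12 analyses with 1 rat left out and was lost without 2 d sham replicate 71 or 72, 2 d IR replicate 69 or 73, 7 d sham replicate 80 or 7 d IR replicate 47 or 48 (adjusted p up to 0.216). The 7 d count of 5 was 1 without 7 d sham replicate 82 or 7 d IR replicate 44 and 2 without 7 d IR replicate 47, and Mylk3 passed in all 12. Without replicates 82, 44 and 47 in turn, 0.513%, 1.86% and 2.27% of all probe sets were called lower. The list's medians were -0.23 at 2 d and -0.44 at 7 d.

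Of 22 genes of the intercalated disc and costamere, 0 were called at 2 d and 3 fell at 7 d, where 5.84% of all probe sets were called lower. Among the 3 were Dsp, desmoplakin, by 0.68 (SE 0.12, adjusted p = 0.00669) and Sgca, alpha-sarcoglycan, by 0.70 (SE 0.17, adjusted p = 0.0173). Without 7 d sham replicate 82 or 7 d IR replicate 44 only Dsp passed, where 0.513% and 1.86% of all probe sets were called lower. Sgca was lost also without 7 d IR replicate 48. Gja1, connexin 43, had a 7 d change of -0.12 (adjusted p = 0.518). Of 10 transcriptional regulators of muscle genes, 3 fell at 7 d, beside the same 5.84% of all probe sets. They were Nkx2-5 by 0.67 (adjusted p = 0.0204), Esrra by 0.64 (adjusted p = 0.0459) and Tbx5 by 0.63 (adjusted p = 0.0194). Esrra passed in 3 of 12 analyses with 1 rat left out, those without 2 d IR replicate 69 or 73 or 7 d sham replicate 80 (adjusted p up to 0.202 in the others). Nkx2-5 lost its call without 7 d sham replicate 81 or 82 or 7 d IR replicate 44, and Tbx5 without 7 d sham replicate 81 or 7 d IR replicate 44 or 47. Srf, which binds the CArG box, and Tead1, which binds the MCAT element, had 7 d changes of -0.26 (adjusted p = 0.251) and -0.30 (adjusted p = 0.133).

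Markers of the heart muscle cell outside the sarcomere, and markers of other cell types, moved in the same rats. All 17 tested cardiomyocyte markers outside the sarcomere had negative changes at both days, 0 called at 2 d and 10 lower at 7 d (Hrc by 0.72, adjusted p = 0.0136), with medians of -0.38 and -0.42. Their summed signal ran from 372100 to 421600 in 7 d IR rats against 500400 to 598800 in 7 d sham rats. Of 16 macrophage and monocyte markers, 9 rose at 2 d and 12 at 7 d, 0 fell, and their summed signal was 119100 to 149000 in 7 d IR against 63750 to 90830 in 7 d sham rats and 101100 to 132700 in 2 d IR against 56410 to 77240 in 2 d sham rats. Of 19 fibroblast and myofibroblast markers, 1 rose at 2 d and 13 at 7 d, with summed signals of 316900 to 397600 in 7 d IR against 125200 to 229900 in 7 d sham rats. Over all probe sets, 1.88% were called higher and 0.589% lower at 2 d, and 6.22% higher and 5.84% lower at 7 d. The counts of these lists rest on single rats too. Without 7 d sham replicate 82 the 7 d counts were 0 (cardiomyocyte), 0 (macrophage) and 7 (fibroblast), without 7 d IR replicate 44 they were 2, 5 and 7, and without 7 d IR replicate 47 they were 4, 5 and 8. In these analyses 1.66%, 4.5% and 4.77% of all probe sets were called either way. Leaving out replicate 81 took the cardiomyocyte count to 4, and leaving out replicate 48 took it to 6, where 4.04% and 4.05% of all probe sets were called lower. At 2 d the macrophage count was 1 without 2 d sham replicate 71 or 72 or 2 d IR replicate 69, where 0.019% of all probe sets were called either way. The fibroblast count at 2 d ran from 0 to 7, highest without replicate 82, and the cardiomyocyte count from 0 to 6, highest without replicate 73. Without replicate 82, 4.76% of all probe sets were called at 2 d, and without replicate 73, 4.89% were. The part of the marker shifts in the lower sarcomere signals was not tested.

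The same 2 rats stand apart in these lists. Replicate 69, lowest of the 2 d IR rats in 25 of the 30 sarcomere genes, was also lowest in the cardiomyocyte markers (0.667 log2 units below the 2 d sham mean, against 0.201 and 0.301) and highest in macrophage markers (1.25 above it, against 0.563 and 0.755). Replicate 82 lay lowest of the 7 d sham rats in fibroblast markers (0.653 below the mean of its group). Over all probe sets, 6.22% were called higher and 5.84% lower at 7 d. Of 12 endothelial markers 0 were called at 2 d and 1 rose at 7 d, which is near the share called higher. Of 13 smooth muscle and pericyte markers 0 were called at 2 d and 3 rose at 7 d (Acta2 by 0.91, adjusted p = 0.027). Of 7 atrial markers 0 were called at 2 d and 2 fell at 7 d, Stard10 by 0.84 (adjusted p = 0.0127) and Myl7, the atrial light chain, by 1.75 (adjusted p = 0.0366), and the summed signal of the list ran from 27240 to 51630 in 7 d IR and from 45450 to 57540 in 7 d sham rats. None of the endothelial, smooth muscle and atrial calls at 7 d held without replicate 82, where 1.66% of all probe sets were called either way.

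**Figure D5:**
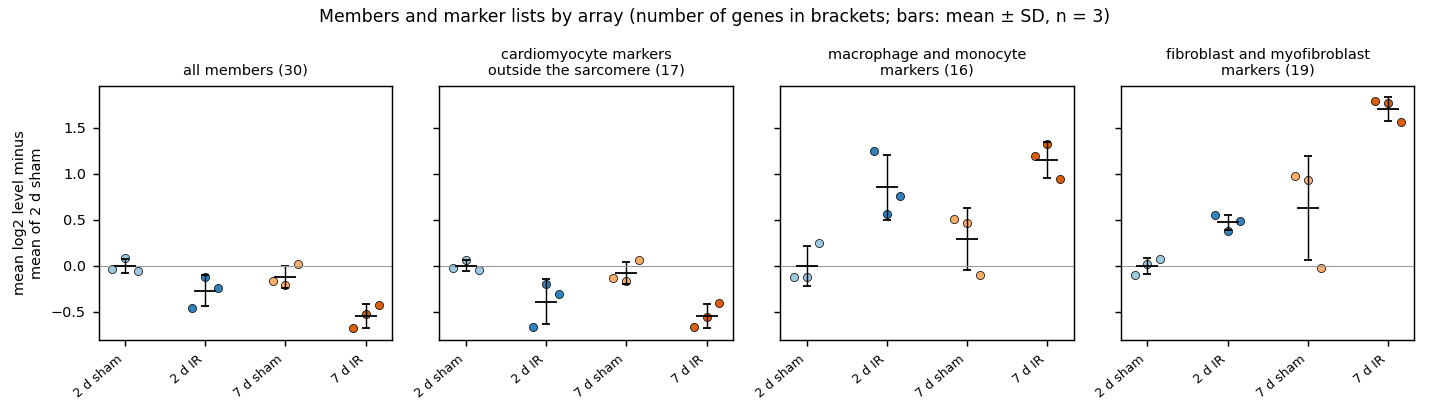
Mean log2 level of the 30 sarcomere and Z-disc genes and of 3 marker lists, minus the mean of the 2 d sham rats (y axis), in each rat (points) by group (x axis), with the mean and SD of 3 rats. The sarcomere genes and the other cardiomyocyte markers lie below 0 in all IR rats, macrophage markers above 0.5 in all IR rats, and fibroblast markers highest in 7 d IR rats. These bounds do not mark IR rats alone. The 7 d sham replicates 80 and 81 lie at -0.168 and -0.211 for the sarcomere genes, below 2 d IR replicate 73 at -0.122. They lie at -0.135 and -0.16 for the cardiomyocyte markers, and replicate 80 lies at 0.508 for macrophage markers.

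Markers of skeletal muscle were mostly dim. Of 19 markers on the array, 6 were bright enough to test. Myh4, Pvalb and Ryr1 were not, with mean signals of 70.02, 67.1 and 42.79. Among those tested, Casq1 and Mybpc2 had mean signals of 2538 and 1501, and their 7 d changes of 0.06 (adjusted p = 0.843) and 0.11 (adjusted p = 0.725) did not pass. Of the 6, 1 fell at 7 d, where 5.84% of all probe sets were called lower. It was Myh1, by 0.47 (adjusted p = 0.0195), a call lost without 7 d sham replicate 81 or 82 or 7 d IR replicate 47. The Myh1 probe set was bright in all rats. As a sign of RNA quality, the Actb control probe sets gave a log2 ratio of 3' over 5' signal of 0.177 ± 0.0577 for the 7 d IR group and 0.579 ± 0.226 for 7 d sham (SD, n = 3, exact two-sided permutation p = 0.1, the smallest these groups allow). At 2 d it was 0.24 ± 0.0702 in IR and 0.203 ± 0.0972 in sham rats (exact permutation p = 0.8). The Gapdh ratio was 0.318 ± 0.0537 and 0.392 ± 0.0727 at 7 d (exact permutation p = 0.2). Its part in the 7 d decreases was not tested.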

How the data were processed

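Each of the 12 rats contributed 1 array of ventricle RNA. Group labels follow the sample titles, because the study's design text lists 7 d sham 2 times and 2 d sham never. Per the submitters' processing notes the authors used MAS5, and the deposited files hold its linear intensity for each probe set; no version is stated. After trimming 2% of probe sets from both ends, array means fell between 1500.4 and 1500.5, a per-array scaling that leaves the shape of each distribution as it was. Array medians ran from 637.3 to 719, and 0 pairs of arrays were identical. Precision is limited by the number of arrays, which have no read depth.

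A pseudocount of 195, the median of the arrays' 20th percentiles, was added before taking log2, so fold changes of dim genes are understated. The deposit lists 15923 probe sets, 57 of them controls that were dropped. Probe sets exceeding the 40th percentile on 3 or more arrays (10527) entered limma 3.58.1 (R 4.3.3): a model of 4 group means, all arrays sharing the variance estimate, eBayes with trend, two-sided, Benjamini-Hochberg adjustment over those 10527. The code was tested on simulated data. Gene names are GEO's platform annotation (12789 probe sets with 1 symbol, 312 with more, 2822 not named here), and promoters come from RefSeq (GRCr8).

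The genes, their classes and the other lists were chosen with earlier results of these data known. All measured genes are named; those called or not overlapping in an IR comparison have their value in every array. Of each other list up to 3 called and 2 uncalled genes are named per comparison; Myh7, Csrp1 and the dim skeletal genes were added after their values were seen. Alternatives were the pseudocount, the filter, quantile normalization, median centring, the trend, array weights, the probe set of a gene, the arrays in the fit and the control group.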

Additional observations from a re-analysis of the deposited data

How the results depend on the processing

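The changes counted here are those of each gene at 2 d and at 7 d. Those of Mypn, Xirp1 and Trim54 between the IR groups, where these genes were called, are counted too. Over all alternatives other than leaving out a single rat, 659 changes kept their direction and their side of the threshold, 38 lost and 27 gained a call, and 26 changed sign. With 1 rat left out, 654 kept both, 71 lost and 21 gained a call, and 10 changed sign. No paired analysis was possible because the groups share no replicate numbers. No fit with a batch was possible either, since the sources used here name none. The cause was not tested for any of the shifts that follow. The number of genes called at 2 d (1) was 0 without the filter on dim probe sets, under quantile normalization, without the intensity trend, with the compared groups alone in the fit, without replicates 69 and 82 together, and with the sham rats of both days pooled or of the other day as control, and ran from 0 to 5 with 1 rat left out. Of all probe sets, 0.0665% to 0.864% were called lower in these settings, and 0.0095% to 1.5% with 1 rat left out. The number called at 7 d (14) was 9 without the filter, 9 without the trend, 7 without replicates 69 and 82 together, 26 with pooled sham and 24 with the sham of the other day, an alternative chosen after seeing the data, and ran from 2 to 19 with 1 rat left out. In the same order, 2.79%, 4.0%, 2.32%, 10.8% and 11.1% of all probe sets were called lower. With 1 rat left out this share ran from 0.513% to 6.63%. Between the IR groups the number (3) was 1 without the filter, 1 without the trend, 5 under quantile normalization, 6 with array weights and 7 without both rats, and ran from 1 to 4 with 1 rat left out. The shares of all probe sets called lower were 0.328%, 0.484%, 1.23%, 2.24% and 2.19% in that order. They ran from 0.38% to 1.4% with 1 rat left out.

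Quantile normalization moved the 2 d class medians to -0.023 (thick filament), -0.057 (thin filament), -0.23 (Z-disc periphery and cell border), -0.11 (all 30 genes) and, with a change of sign, 0.039 (small heat shock proteins), and the 7 d medians to -0.21 (thick filament), -0.13 (thin filament), -0.28 (Z-disc), -0.12 (small heat shock proteins) and -0.23 (all 30 genes). With the sham of the other day as control, the 2 d medians were -0.27 (titin), -0.22 (Z-disc periphery), -0.042 (small heat shock proteins) and -0.15 (ring-finger ligases), and the 7 d medians -0.77 (titin), -0.54 (Z-disc), -0.52 (small heat shock proteins) and -0.56 (all 30 genes). Without both rats that stand apart, the 2 d median of the Z-disc periphery was -0.23, and with the mean of all probe sets of a gene the 7 d median of the thin filament was -0.24. Over the alternatives other than leaving out a single rat, the 2 d median of the Z-disc ran from -0.26 to -0.089. That of the M-band ran from -0.45 to -0.24. With 1 rat left out, the 2 d medians ran from -0.41 to -0.23 for the Z-disc periphery, -0.29 to -0.12 for the Z-disc, -0.38 to -0.18 for the thin filament, -0.49 to -0.24 for the M-band and -0.32 to -0.12 for the small heat shock proteins, in each case smallest without replicate 69, and no other class median moved by over 1.5 times.

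Signs changed under quantile normalization for the 2 d changes of Myl2 (0.12), Tnnt2 (0.045), Csrp3 (0.036), Des (0.056) and Cryab (0.13) and for the 7 d change of Tnnc1 (0.014). They changed at 2 d for Mypn (0.15 without both rats, 0.014 with pooled sham, 0.093 with the other sham), Pdlim1 (-0.046 with median centring, -0.0081 with array weights, -0.048 with pooled sham, -0.10 with the other sham), Pdlim3 (0.048, 0.076 and 0.21 in the settings named for Mypn), and, with the other sham, Synpo2l (0.097), Des (0.011) and Trim54 (0.022). With the mean of all probe sets the signs changed for Pdlim5 (0.15 at 2 d, 0.046 at 7 d) and at 7 d for Myl2 (0.0073) and Tpm1 (0.052). At 7 d they changed for Pdlim1 (-0.0034 with median centring) and Synpo2l (-0.076 with pooled sham, -0.21 with the other sham). With 1 rat left out, the 2 d change ran from -0.22 to 0.15 for Mypn, -0.097 to 0.10 for Pdlim1 and -0.30 to 0.076 for Pdlim3, and the 7 d change from -0.044 to 0.10 for Pdlim1 and -0.28 to 0.32 for Synpo2l.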
